A study of Auxenochlorella pyrenoidosa with 8 samples.

Results

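The last interval of the time course, from 4 h to 24 h in air, is described here for a unicellular green alga that had been cut off from added CO2. The comparison sets 2 libraries labelled 24 h against 2 labelled 4 h, which are 4 of the 8 libraries of the series. Genes were kept where the mean over these 4 libraries was at least 1 RPKM (reads in a gene divided by its length in kilobases and by the library's total), which left 9248 of 10283 genes. The question is which of them turned back towards their starting level and which held the level reached at 4 h.

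The alga was Auxenochlorella pyrenoidosa strain FACHB-9, also known as Chlorella pyrenoidosa. All cultures grew in light on 5% CO2 before the shift, and the groups were 0 h (at the shift to bubbled air), 1 h, 4 h and 24 h in air, with 2 libraries each from separate biological experiments. A culture kept on 5% CO2 to the later times was not analysed here, so hours in air and hours in culture cannot be told apart. Libraries 1 and 2 held 18489074 and 35463138 gene-assigned reads for 4 h, and 18915889 and 19388209 for 24 h.

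Green algae respond to scarce CO2 with a carbon-concentrating mechanism, in which bicarbonate transporters and carbonic anhydrases raise the CO2 around Rubisco, often within a pyrenoid. In the related alga Chlamydomonas, many of its genes are switched on within hours of the shift to air. The deposited files give gene numbers without names or products, so no gene could be assigned to this mechanism or to any other pathway, and the algal identity of the cells could not be checked by marker genes. Genes are therefore given by number, position and level.

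The 24 h libraries were far less alike than the 4 h libraries, and this bears on every result below. Of 9248 genes, 754 (8.15%) were at least 2-fold apart between the 24 h libraries, on the log2(RPKM + 1) scale, and 15 (0.162%) were between the 4 h libraries. The library labelled 24 h number 1 was closest to that labelled 1 h number 2, with 27 genes at least 2-fold apart. The library labelled 24 h number 2 was closest to that labelled 1 h number 1, with 138 such genes, whereas the 1 h libraries had 449 between them. An exchange of labels between libraries of 1 h and 24 h was not tested, and every value for 24 h rests on the labels as given. The counts of called and of turned-back genes are given with each 24 h library left out, and the levels of named genes for each library.

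Few genes passed the test between 4 h and 24 h, and how many counted as held depended on the limit set. In limma, fitted to all 8 libraries on log2(RPKM + 1) with Benjamini-Hochberg adjustment over all genes, 31 genes rose from 4 h to 24 h (0.335%) and 35 fell (0.378%), 66 together (0.714%) at an adjusted p under 0.05. A gene was counted as held only where the whole 95% interval of its log2 fold change lay within 2-fold either way, and 6718 genes (72.6%) met this. With a limit of 1.5-fold 2060 genes (22.3%) met it, and with the 2-fold limit but without 4 h library 1 it was 4586 (49.6%). With the 2-fold limit, the remaining 2464 genes (26.6%) were neither called nor held, and are left undecided. The median size of the change was 0.218 on the log2 scale, whatever its sign, and the median of the signed changes was 0.05. RPKM is a share of the reads, so a fall in transcripts of a gene and a rise in the rest of the RNA cannot be told apart.

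The calls depended on the libraries fitted. Leaving out either 4 h library or either 0 h library left 0 called genes in limma (511, 518, 1290 and 1290 at an unadjusted p under 0.05), leaving out 24 h library 1 left 33 higher and 9 lower (15 of these 42 shared with the 66), and leaving out 24 h library 2 left 0 higher and 1 lower, a gene outside the 66. Without both 1 h libraries 14 rose and 23 fell, without 1 h library 1 alone 14 and 23, and without 1 h library 2 alone 13 and 23. With only the 4 h and 24 h libraries fitted, limma called 0 genes, beside 1213 at an unadjusted p under 0.05. With the library number as a block it called 0 as well, beside 1087. The 4 h and 24 h libraries of all 66 genes did not overlap, so leaving out a library could not turn their direction. Quantile normalization called 8 higher and 15 lower, so that 65.2% of calls were falls, against 53.0% in the values as deposited.

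At 4 h the genes that fell stood high and those that rose stood low, which the direction of their change itself favours, and at 0 h the medians of both sets were near that of all tested genes. Levels are given per length of the whole gene, introns included. The 35 that fell had a median of 85.7 RPKM at 4 h (8.64 to 3290 RPKM) and 19.2 RPKM at 24 h. The 31 that rose had a median of 2.68 RPKM at 4 h (0.584 to 58.4 RPKM) and 11.7 RPKM at 24 h. At 0 h the medians were 13.6 RPKM for those that fell and 15.3 RPKM for those that rose, beside 14.8 RPKM for all tested genes, whose medians at 4 h and 24 h were 12.6 and 13.3 RPKM. When the tested genes were ranked by mean RPKM and cut into 4 equal bins, held genes made up similar shares of all bins, from 70.5% to 74.7%. These shares were judged on log2(RPKM + 1), where the pseudocount pulls in the changes of low genes and so favours their being held. With a pseudocount of 0.1 RPKM 5856 of all tested genes (63.3%) were held, and under limma voom on recovered reads 5815 (62.9%).

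In size, the falls had a median log2 fold change of -1.64 (range -3.49 to -1.05) and the rises one of 1.41 (0.94 to 2.16). On this log2(RPKM + 1) scale, 12 genes fell and 3 rose by 4-fold or more, and by the means of RPKM itself, where low genes are not pulled in, 14 fell and 7 rose by as much. The groups did not overlap in any of the 66 genes, a condition that 4391 of all 9248 genes (47.5%) met, 29.1% with 24 h above 4 h and 18.4% with it below. Both 24 h libraries lay at least 2-fold from the 4 h mean for 34 of the 35 genes that fell and for 27 of the 31 that rose. The plot of the change from 4 h in each 24 h library shows these genes along the diagonal, where the libraries coincide.

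**Figure D1:**
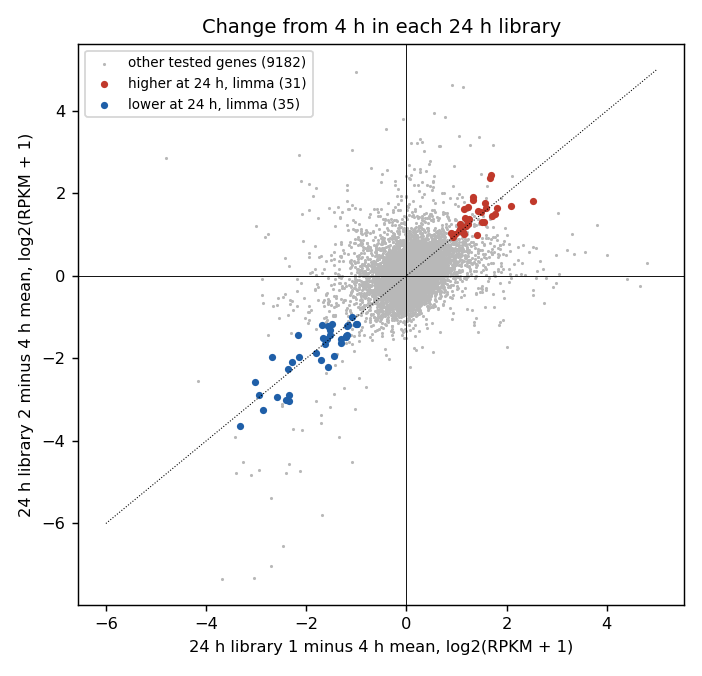
Each point is 1 of 9248 genes, and the axes give log2(RPKM + 1) in 24 h library 1 (x) and 24 h library 2 (y) minus the mean of the 4 h libraries. The 31 red and 35 blue genes, called higher or lower by limma, lie close to the dotted line of equal change, while many larger differences among the grey genes belong to 1 library only.

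Many genes with larger estimates were not called, and in most of the largest the 24 h libraries stood far apart. Among genes neither called nor held, 341 had an estimate of at least 2-fold and 46 of at least 4-fold. Of these 46 genes, 41 (89.1%) were at least 2-fold apart between the 24 h libraries. The test itself favours genes whose libraries lie close together, and 0 of the 66 called genes were that far apart. In either direction, 81 genes were at least 2-fold above the 4 h mean in both 24 h libraries and 88 at least 2-fold below it in both. Singly, library 1 had 348 genes above and 287 below, and library 2 had 379 above and 194 below.

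Every gene that passed the test moved towards its 0 h level. All 35 genes that fell after 4 h had stood higher at 4 h than at 0 h, with a median log2 difference of 1.90, and all 31 that rose had stood lower, with a median of -1.57. The 4 h libraries enter both differences, so an error in them would push these values in opposite directions, and over all tested genes the signs were opposite in 6671 of 9248. Set against 0 h, the 35 that fell were still at a median log2 of 0.50 at 24 h and the 31 that rose at -0.29. Of the 35, 19 were within 1.5-fold of the 0 h level at 24 h and 8 were at least 2-fold from it, and of the 31 these numbers were 19 and 6. For 25 of the 35 and 22 of the 31, the 24 h mean lay on the 4 h side of the 0 h mean.

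By library, the genes that fell stood at a median of -2.03 and -1.90 relative to the 4 h mean at 0 h, at -1.51 and -1.34 at 1 h, and at -1.62 in both libraries at 24 h, on the log2(RPKM + 1) scale. The genes that rose stood at 1.69 and 1.56 at 0 h, at 1.39 and 1.43 at 1 h, and at 1.32 and 1.41 at 24 h. Since the genes were chosen for a difference between 24 h and 4 h, the choice itself sets the 4 h libraries apart from those of 24 h. Over all tested genes the medians relative to the 4 h mean were 0.23 and 0.15 in the 0 h libraries, 0.11 and 0.09 in those of 1 h, and 0.05 and 0.04 in those of 24 h. Together the 35 genes that fell drew 1.80% and 1.77% of reads in the 4 h libraries, 0.457% and 0.439% in those of 24 h and 0.269% and 0.275% in those of 0 h.

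**Figure D2:**
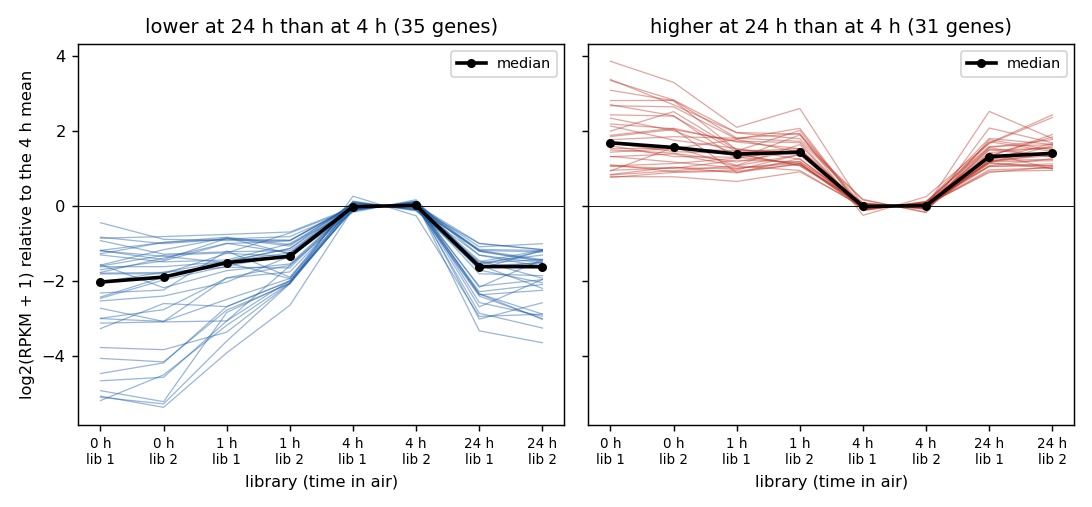
The log2(RPKM + 1) of each called gene relative to its 4 h mean (y) is drawn for the 8 libraries in order of time (x), with thin lines for genes and a black line for the median, at left for the 35 genes that fell and at right for the 31 that rose. The choice of the genes sets the 4 h and 24 h libraries apart, and the 24 h medians of -1.62 and of 1.32 and 1.41 lie between the 4 h and 0 h medians.

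The most abundant genes among those that fell, by the rule for naming, were g4052 and g4211. g4052 is a complete model of 3 exons with 231 bp of coding sequence on the plus strand of scaffold00514 (2035313 to 2036037), in an assembly whose name the sources used here do not give. Its level was 3343 and 3238 RPKM in the 4 h libraries and 635 and 691 RPKM in the 24 h libraries, beside 147 and 180 RPKM at 0 h and 511 and 823 RPKM at 1 h. The 4 h and 24 h libraries were far apart with no overlap, and both 24 h libraries stayed well above those of 0 h. Its level fell 4.96-fold in the means (log2 fold change -2.31, SE 0.27, limma adjusted p = 0.026), from 3290 ± 74.0 to 663 ± 39.8 RPKM (SD, n = 2 each). Both 24 h libraries had come just past the half-way point to 0 h, at 54.8% and 52.0% on the log2 scale. By share of reads it ranked 33 at 4 h and 296 at 24 h.

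g4211 is a complete model of 3 exons with 873 bp of coding sequence on the plus strand of scaffold00557 (67636 to 69402). It stood at 1104 and 1106 RPKM at 4 h and at 226 and 258 RPKM at 24 h, beside 166 and 130 RPKM at 0 h and 195 and 288 RPKM at 1 h. Here the 24 h libraries lay within the range of the 1 h libraries and above both 0 h libraries. The fall from 1105 ± 0.855 to 242 ± 22.9 RPKM (SD, n = 2 each) was 4.57-fold (log2 fold change -2.19, SE 0.25, limma adjusted p = 0.026), and the 24 h libraries had covered 78.7% and 72.1% of the way to 0 h.

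Both genes have a divergent neighbour that also fell, an observation made after their values were seen. The model next to g4052, on the opposite strand with 1425 bp between the gene ends, went from 983 and 683 RPKM at 4 h to 105 and 110 RPKM at 24 h (log2 fold change -2.92, limma adjusted p = 0.046). That next to g4211, 1725 bp away on the opposite strand, went from 37.0 and 33.0 to 15.1 and 14.8 RPKM (log2 fold change -1.17, limma adjusted p = 0.046). These were the 2 adjacent pairs among the 35 genes that fell, and both were head to head, as were 2287 of the 7272 adjacent pairs of tested genes. Of the 35 genes, 4 (11.4%) lay in adjacent pairs. Of genes at least 2-fold above or below 0 h at 4 h, larger sets in which neighbours are likelier, 14.7% and 18.9% did. Among the 31 genes that rose there were 0 adjacent pairs. The models of the 2 pairs that fell do not overlap, and no source used here says whether counting kept the strand.

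The most abundant genes that rose were g6984 and g7295. g6984, with 4 exons and 951 bp of coding sequence on the minus strand of scaffold01003 (21867 to 23610), was at 59.0 and 57.9 RPKM at 4 h and at 174 and 147 RPKM at 24 h. At 0 h it had 417 and 418 RPKM and at 1 h 208 and 226 RPKM, so that the 24 h libraries lay below all libraries of the earlier times except those of 4 h. Its level rose 2.74-fold, from 58.4 ± 0.803 to 160 ± 19.1 RPKM (SD, n = 2 each; log2 fold change 1.43, SE 0.18, limma adjusted p = 0.035). The libraries fell on either side of half-way to 0 h, at 55.2% and 46.6%.

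g7295 is a gene of 1 exon with 384 bp of coding sequence on the minus strand of scaffold01010 (1977 to 2430). It was at 36.9 and 37.5 RPKM at 4 h and at 108 and 93.9 RPKM at 24 h, beside 107 and 101 RPKM at 0 h and 85.3 and 106 RPKM at 1 h. The 24 h libraries enclosed both values of 0 h. The rise, from 37.2 ± 0.454 to 101 ± 9.83 RPKM (SD, n = 2 each), was 2.71-fold (log2 fold change 1.41, SE 0.19, limma adjusted p = 0.042). Its 24 h mean was 0.972 times that of 0 h. None of these 4 genes kept its call when a library of 0 h, 4 h or 24 h was left out. Their log2 fold changes over all leave-outs ranged from -2.37 to -2.25 for g4052, from -2.29 to -2.09 for g4211, from 1.31 to 1.56 for g6984 and from 1.31 to 1.51 for g7295, and over all 19 alternatives their adjusted p reached at most 0.347, 0.347, 0.463 and 0.463.

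To set turning back beside holding, the genes that stood at least 2-fold from 0 h at 4 h were followed to 24 h. There were 245 raised (2.65% of tested genes) and 767 lowered (8.29%). A gene was counted as turned back where both 24 h libraries lay past the half-way point from the 4 h mean to the 0 h mean, on the log2(RPKM + 1) scale, as short of it where neither did, and as split where 1 did. Since the genes were chosen with the 4 h libraries, these counts are descriptions without a test. The balance of raised and lowered genes depends on the scaling. The 4 h level of the median gene differed from its 0 h level by -0.19 (log2), and trimmed-mean scaling gave 380 raised and 491 lowered genes, so that 56.4% were lowered instead of 75.8%.

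Of the 245 raised genes, 91 (37.1%) had turned back, 41 (16.7%) were short of half-way and 113 (46.1%) were split. Of the 767 lowered genes, 153 (19.9%) had turned back, 257 (33.5%) were short and 357 (46.5%) were split. Over all 9248 tested genes, whatever their displacement, 21.2% lay past half-way in both libraries and 33.3% in neither. The share of lowered genes that turned back was near this 21.2%. However, 5796 of all tested genes stood within 0.5 of 0 h (log2) at 4 h. For these half-way is a small step, so the shares are not alike in kind. On the 0 h side of the 4 h mean in both 24 h libraries were 197 raised (80.4%) and 625 lowered genes (81.5%). Of all tested genes, 48.7% were. The raised and lowered shares drew together with another scaling. After trimmed-mean scaling 26.6% of raised and 24.4% of lowered genes had turned back, and 27.9% and 24.0% were short of half-way.

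These shares also moved with single libraries. Without 0 h library 2, 416 raised and 1199 lowered genes met the 2-fold rule, and 21.2% and 11.3% had turned back. Without 0 h library 1 the numbers were 199 and 572 genes, of which 42.2% and 26.4% had turned back. Judged by 24 h library 1 alone, 54.7% of the raised and 40.2% of the lowered genes were past half-way, and by library 2 alone 65.7% and 46.3%. Among the split genes, library 2 was the one past half-way in 70 of 113 raised and 202 of 357 lowered genes.

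The median raised gene had covered 55.0% of the way back in 24 h library 1 and 68.2% in library 2. The median lowered gene had covered 41.5% and 47.8%. For comparison, the 1 h libraries stood at 68.8% and 46.1% of the way from 4 h to 0 h for the raised genes and at 57.9% and 44.3% for the lowered ones. For raised genes the 24 h medians lay within the range of those of 1 h, and for lowered genes the median of 24 h library 1 lay below both. Both 24 h libraries lay beyond the 0 h mean for 5 raised and 9 lowered genes, and 3 raised and 5 lowered genes moved further from 0 h in both.

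**Figure D3:**
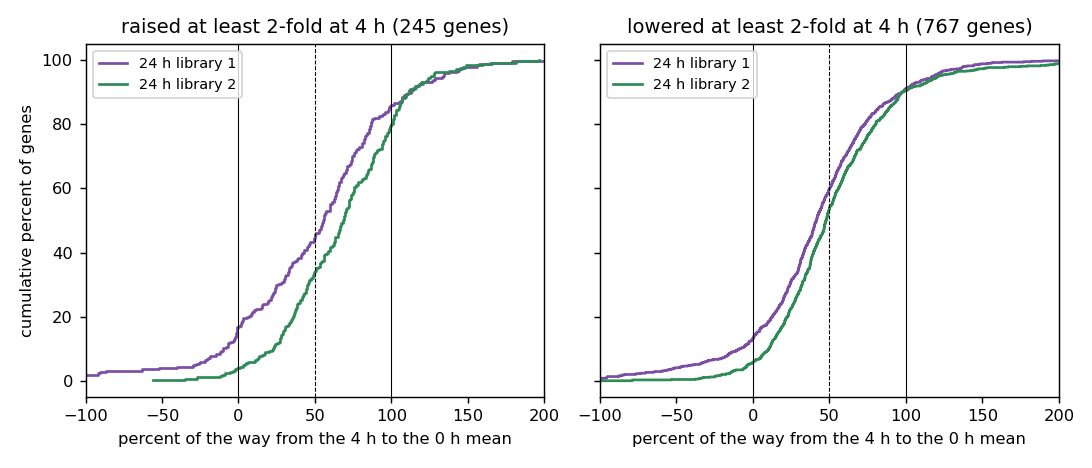
The cumulative percent of genes (y) is drawn against the percent of the way from the 4 h mean to the 0 h mean on the log2(RPKM + 1) scale (x, with the few genes beyond its ends not drawn), 1 line for each 24 h library, at left for the 245 raised and at right for the 767 lowered genes. The dashed line marks half-way, which 54.7% and 65.7% of raised genes and 40.2% and 46.3% of lowered genes had passed in libraries 1 and 2.

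The share of raised genes short of half-way in both 24 h libraries was smaller among those with larger rises at 4 h, a description with no test. Among the 175 genes raised 2- to 4-fold, 40 (22.9%) were short of half-way in both 24 h libraries. Among the 31 raised 4- to 8-fold it was 1 gene, and among the 39 raised by more than 8-fold it was 0. These strongly raised genes were mostly split or turned back, with 22 and 17 genes of the 39. Among lowered genes, 237 of 681 (34.8%) lowered 2- to 4-fold were short of half-way, as were 15 of 64 (23.4%) and 5 of 22 (22.7%) in the larger classes.

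**Figure D4:**
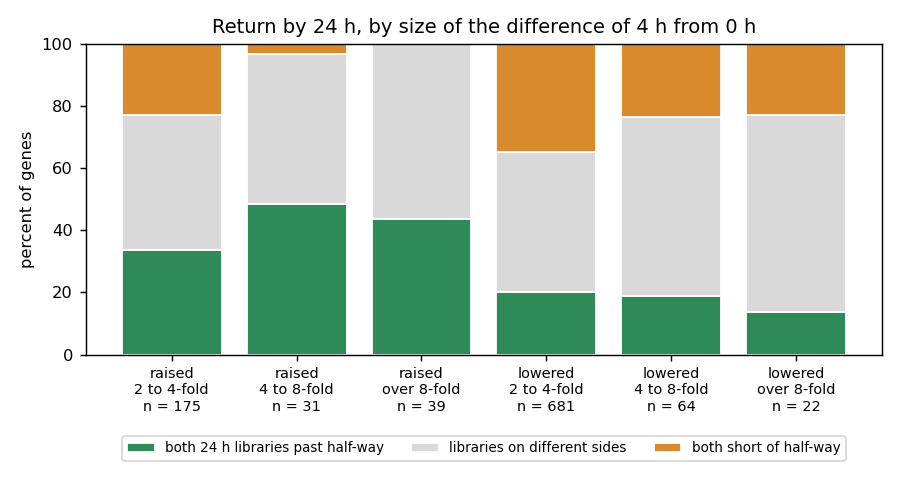
Stacked bars give the percent of genes (y) whose 24 h libraries were both past half-way to 0 h (green), on different sides of it (grey) or both short of it (orange), by direction and size of the difference of 4 h from 0 h (x, with the number of genes). The orange part shrinks from 22.9% to 0 with the size of the rise, and the green part is larger for raised than for lowered genes in every size class of the values as deposited, although trimmed-mean scaling brought the overall shares to 26.6% and 24.4%.

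Most displaced genes also moved towards 0 h in libraries that had no part in choosing them, a description with no test. It rests on the 24 h labels as given, and an exchange with the 1 h libraries, which lay closest to them, was not tested. When 0 h and 4 h libraries 1 chose the genes by the same 2-fold rule, 355 of 411 raised genes (86.4%) were lower at 24 h than at 4 h in libraries 2, with a median log2 difference of -0.56. A full return in those libraries would have been -0.75. Of the 1160 lowered genes, 1051 (90.6%) were higher at 24 h, with a median of 0.55 where a full return was 0.91. Over all tested genes, 46.8% were lower and 53.2% higher at 24 h in libraries 2.

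With the roles exchanged, libraries 2 chose 205 raised and 583 lowered genes. In libraries 1, 191 of the raised genes (93.2%) were lower at 24 h than at 4 h, by a median log2 of -1.20 where a full return was -1.64. Of the lowered genes, 503 (86.3%) were higher, by 0.60 where a full return was 1.49. Over all tested genes 39.5% were lower and 60.5% higher in libraries 1. As a share of the full return, the medians came to 74.2% and 73.2% for raised and 60.7% and 40.4% for lowered genes. Their order held for 1 of the 2 choices after trimmed-mean scaling, with 61.6% and 64.4% for raised and 65.0% and 44.1% for lowered genes.

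Counted in reads, the raised genes drew 11.3% and 10.9% of each 4 h library and 5.51% and 4.53% of each 24 h library, beside 2.65% and 2.85% for 0 h. The lowered genes drew 4.10% and 3.88% for 4 h and 5.92% and 9.25% for 24 h, beside 12.4% and 9.95% for 0 h. The 1 h libraries held 4.08% and 5.63% in the raised genes and 8.27% and 5.97% in the lowered ones. The gap between the 24 h libraries in the lowered genes lay largely in the 153 that turned back, which drew 1.01% and 3.26%. For 0 h these 153 drew 1.41% and 1.19%, so 24 h library 1 lay below both 0 h libraries and library 2 above both. The 1 h libraries held 1.99% and 1.02% in them, so that 1 h library 2 was near 24 h library 1. The 257 short of half-way drew 2.29% and 2.37% for 24 h.

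Among the genes short of half-way, about as many met the stricter definition of held as did not. Of the 41 raised genes short of half-way, 21 met it, with the 95% interval of the change after 4 h within 2-fold, and so did 130 of the 257 lowered genes. Their shares, 51.2% and 50.6%, were below that of all tested genes (72.6%), most of which were little displaced at 4 h. Of all 245 raised and 767 lowered genes, 9.39% and 19.7% were held. Choosing genes short of half-way itself favours holding. The 41 raised genes drew 0.816% and 0.810% of reads for 4 h and 0.685% and 0.649% for 24 h, against 0.259% and 0.388% for 0 h. The 257 lowered genes drew 2.00% and 1.67% for 4 h, against 6.03% and 4.42% for 0 h.

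The named genes of this group were chosen among those called in limma at 4 h against 0 h, held from 4 h to 24 h, short of half-way in both 24 h libraries and of at least 10 RPKM on average. At 4 h against 0 h, limma called 198 genes higher (2.14%) and 904 lower (9.78%), and 23 and 103 genes met all conditions. Among the raised ones the largest rise was that of g5314, with 6 exons and 306 bp of coding sequence on the minus strand of scaffold00734 (355417 to 357336). It went from 17.0 and 16.6 RPKM at 0 h through 24.1 and 31.6 RPKM at 1 h to 54.8 and 39.9 RPKM at 4 h and stood at 48.0 and 31.8 RPKM at 24 h. The 4 h and 24 h libraries overlapped, and all 4 lay above those of 0 h. The rise to 4 h was 1.42 in log2 (SE 0.26, limma adjusted p = 0.019). The change after 4 h was -0.25 in log2, with a 95% interval from -0.86 to 0.35.

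g8076, with 10 exons and 1251 bp of coding sequence on the plus strand of scaffold01094 (103756 to 107240), had 9.29 and 15.8 RPKM at 0 h, 19.5 and 29.2 RPKM at 1 h, 30.9 RPKM in both 4 h libraries and 31.1 and 22.7 RPKM at 24 h. One 24 h library equalled the 4 h level and the other was lower. Its log2 fold change was 1.28 at 4 h (SE 0.30, limma adjusted p = 0.036) and -0.21 after 4 h, with a 95% interval from -0.90 to 0.49. Without 24 h library 2 the estimates after 4 h turned to 0.036 for g5314 and to 0.012 for g8076.

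Among the 103 lowered genes that met these conditions, which require a level that stayed low, g7402 fell most. It has 3 exons and 981 bp of coding sequence on the plus strand of scaffold01012 (618956 to 620640). It went from 96.0 and 87.4 RPKM at 0 h to 24.1 and 37.8 RPKM at 1 h, 18.1 and 21.0 RPKM at 4 h and 27.8 and 26.6 RPKM at 24 h. All libraries after 0 h lay far below both of 0 h, and the 24 h libraries were above those of 4 h and within the range of those of 1 h. The log2 fold change was -2.18 at 4 h (SE 0.23, limma adjusted p = 0.0039) and 0.46 after 4 h, with a 95% interval from -0.07 to 1.00 (0.9994), at the edge of the 2-fold limit.

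g9736, with 5 exons and 732 bp of coding sequence on the minus strand of scaffold01246 (1079743 to 1081606), had 103 and 62.0 RPKM at 0 h, 48.2 and 42.4 RPKM at 1 h, 30.2 and 23.9 RPKM at 4 h and 34.4 and 36.5 RPKM at 24 h. Its 0 h libraries were far apart, and both lay above all later ones. The log2 fold change was -1.54 at 4 h (SE 0.26, limma adjusted p = 0.015) and 0.39 after 4 h, with a 95% interval from -0.22 to 0.99. The 24 h libraries had covered 22.5% and 27.8% of the way back.

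**Figure D5:**
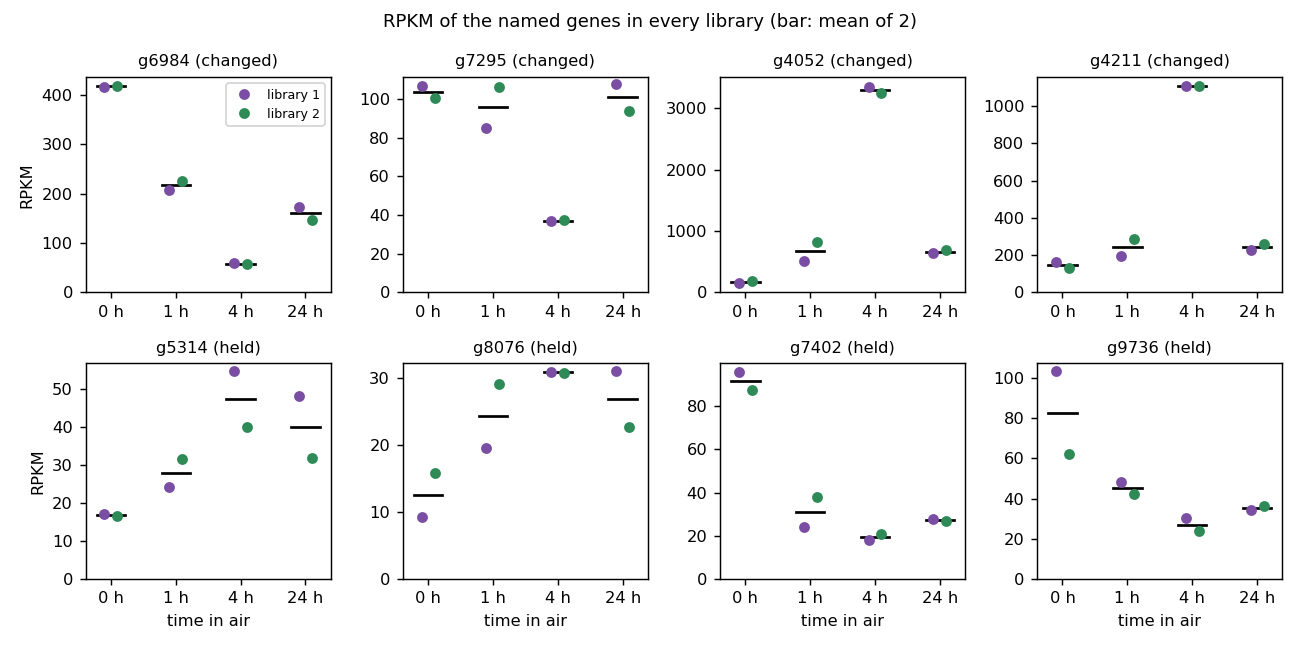
RPKM (y, linear and from 0) is shown at 0, 1, 4 and 24 h (x) for the 4 genes that changed after 4 h (upper row) and the 4 that held (lower row), with 1 dot for each library and a bar at the mean of 2. In the upper row the 4 h dots stand alone. The 24 h dots overlap the range of the 1 h dots for g4052 (635 and 691 RPKM at 24 h), g4211 and g7295. For g6984 the 24 h dots (174 and 147 RPKM) lie below those of 1 h (208 and 226 RPKM). In the lower row the 24 h dots overlap those of 4 h for g5314 and g8076 and lie above them for g7402 (27.8 and 26.6 RPKM) and g9736 (34.4 and 36.5 RPKM), and for these last genes they lie below both 0 h dots.

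Genes near their 0 h level at 4 h were held somewhat more often than all genes. Of 5796 genes within 0.5 of their 0 h level on the log2 scale at 4 h, 4934 (85.1%) were held to 24 h, beside 72.6% of all tested genes. The choice of these genes used the 4 h libraries too. Limma and voom each called 0 of them, although 290 and 315 had a p under 0.05 before adjustment, and calls were rare over all genes (0.714% in limma). In both 24 h libraries, 2 of these genes were at least 2-fold above the 4 h mean and 0 were at least 2-fold below, out of 81 and 88 among all tested genes. Against 0 h itself, limma and voom each called 0 of 9248 genes at 24 h, with a smallest adjusted p of 0.125 in limma. Before adjustment, limma gave 1680 genes with p under 0.05 and voom gave 1368. Of the 100 genes with the highest RPKM at 4 h, 67 held, 4 fell, 0 rose and 29 were undecided, where 72.6% held, 0.378% fell and 0.335% rose over all tested genes. A choice by a high 4 h value favours falls over rises.

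The gene models of the sets are given beside those of all tested genes, without a test. The 35 that fell had a median of 8 exons, 1167 bp of coding sequence and a span of 3565 bp, and the 31 that rose had 7 exons, 825 bp and 2495 bp. All tested genes had medians of 7 exons, 1008 bp and 2945 bp. Single-exon genes were 2 of the 31 that rose (6.45%), 0 of the 35 that fell and 85 of all 9248 (0.919%). The 153 lowered genes that turned back and the 257 short of half-way had the same median of 6 exons, with 936 and 885 bp of coding sequence. Among the 91 raised genes that turned back and the 41 short of half-way the median was 7 exons, with 963 and 861 bp. The 35 genes that fell lay on 27 scaffolds and the 31 that rose on 22, where all tested genes lay on 1176. How many scaffolds as many genes picked at random would cover was not tested.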

How the data were processed

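The deposited table gives RPKM per gene and library, per the file headers. TopHat and HTSeq are named in the submitters' processing notes, without versions or an assembly name. Gene positions come from the deposited AUGUSTUS models, which the authors gave as start and end on each scaffold. Each RPKM value times the gene's end minus start, introns included, gave whole reads within 0.01 reads for 100% of values, so the length used was the full span and depth could be recovered. Reads per library ranged from 16706278 to 35463138, and 0 columns were unused. The tested gene with the lowest mean over the 4 libraries was at 1.00 RPKM and the highest one left out at 0.998 RPKM.

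From these values log2(RPKM + 1) was computed, and the 8 libraries in 4 groups were fitted with limma (version 3.58.1, R 4.3.3), using trended, robust variance moderation (residual degrees of freedom 4, median prior degrees of freedom 3.62). The pseudocount understates the change of low genes. Voom on the recovered reads was an alternative, as were other pseudocounts, filters, scalings and libraries left out. The fit was tested on simulated data with the same dispersion in every group, a set value not estimated from these libraries. That test does not cover the unequal spread of the 4 h and 24 h libraries, or a spread larger than the one simulated. Named genes were the 2 rises and 2 falls of highest mean RPKM among calls without overlap, and the 2 largest rises and falls at 4 h among genes that held. The comparison, lists and rules were chosen with earlier results of these data known.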

Additional observations from a re-analysis of the deposited data

Results flagged for a closer look

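The change from 0 h differed between 24 h and 4 h by the test of the difference itself, the limma contrast of 24 h with 4 h, for 31 genes that were higher at 24 h and 35 that were lower. Among the named genes this held for g6984 and g7295, with log2 fold changes of 1.43 and 1.41, and for g4052 and g4211, with -2.31 and -2.19. All of these values rest on the labels of the 24 h libraries, and neither the part that the gap between those libraries plays in them nor an exchange of labels with the 1 h libraries was tested.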

How the results depend on the processing

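For genes higher and lower at 24 h than at 4 h (31 and 35), the counts were 49 and 38 with a pseudocount of 0.1 RPKM, 5 and 7 with no filter, 8 and 15 after quantile normalization, 9 and 15 without trend or robust moderation, 14 and 23 without both 1 h libraries, 12 and 21 under voom on recovered reads, and 0 and 0 with the 4 h and 24 h libraries alone. With the library number as a replicate block, limma called 0 and 0 (1087 genes at an unadjusted p under 0.05); the labels do not say that a number marks shared cultures, and the deviations of the 4 h and 24 h libraries with equal numbers had a correlation of 0.159 across genes, beside 0.349 for 0 h and 4 h and -0.73 for 1 h and 24 h. Leaving out 1 library at a time gave 0 to 33 higher and 0 to 23 lower genes. In such fits the lone library left was assumed to vary like the other groups. The 4 h and 24 h libraries of the 66 genes did not overlap, so their sign could not turn in these fits. Held genes numbered 6718, 2060 with a limit of 1.5-fold, and 4586 to 6760 with 1 library left out.

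Turned-back genes (37.1% of raised, 19.9% of lowered) made up 26.6% and 24.4% after trimmed-mean scaling, 28.7% of raised genes after quantile normalization, 50% and 28.1% of genes called at 4 h, 64.1% and 53.1% past 0.25 of the way, and 11.0% and 5.35% past 0.75. With 1 library left out they ranged from 21.2% to 65.7% and from 11.3% to 46.3%. By construction, more genes pass when 1 of the 24 h libraries decides. With 1 of the 24 h libraries left out, the change of g5314 ranged from -0.54 to 0.036 and that of g8076 from -0.43 to 0.012, turning without library 2. In libraries that did not choose the genes, trimmed-mean scaling, tried after the data had been seen, moved the share going back from 89.8% to 87.9% of raised and from 88.4% to 88.3% of lowered genes. The cause of these shifts was not tested. The called genes had at least 24 reads in each 4 h and 24 h library, and the part of depth in the calls was not tested.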
